A study of Mus musculus with 6 samples.

Results

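Transcripts of 9 Krüppel-like factors, Klf2, Klf3, Klf4, Klf5, Klf6, Klf7, Klf9, Klf10 and Klf13, were compared between mouse embryonic stem (ES) cells that keep a copy of the Dicer gene and cells that have lost both. Dicer makes mature microRNAs out of their precursors. Messenger RNA was read on Affymetrix arrays, where several short probes, together called a probe set, read 1 transcript. The members are every probe set that the platform annotation gives to exactly 1 gene, that gene being among the 9. This gave 33 probe sets of the 45101 on the array, and 0 probe sets named a member together with another gene. One group was the Dicer +/- line D4, called heterozygous here, and the other the Dicer -/- line 27H, called null (27H10 in the series title), each undifferentiated and on 3 arrays. With 1 cell line for each genotype, an effect of the genotype and a difference between lines cannot be told apart. Nothing in the labels ties the arrays of a line to separate cultures; the spread behind every p-value is that between arrays and may be technical. Strain, culture medium and the deleted stretch of the Dicer gene are not given in the labels either.

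Krüppel-like factors are transcription factors that bind CACCC boxes and GC-rich boxes in DNA through zinc fingers near their carboxyl end, and differ in the rest of the protein. In ES cells Klf2, Klf4 and Klf5 act beside Oct4, Sox2 and Nanog to sustain self-renewal and can partly replace each other. Klf4 is induced by leukaemia inhibitory factor (LIF) through Stat3, and it is one of the factors that reprogram somatic cells to pluripotency. Other members are best known as repressors: Klf3 recruits the co-repressor CtBP, and Klf9, Klf10 and Klf13 recruit Sin3.

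Values are intensities in arbitrary units on a linear scale, and differences are null minus heterozygous on the log2 scale. A gene was called where limma's Benjamini-Hochberg adjusted p was under 0.05 and the groups differed 2-fold or more, which is 1 on the log2 scale. Of the 33 probe sets, 30 passed the filter on low values, which asked for an intensity of 32 (5 on the log2 scale) on 3 or more arrays, and every gene had at least 1 that passed. For gene-level statements each gene is represented by its brightest probe set, with p adjusted over 12927 genes; statements on single probe sets use p adjusted over 26545 probe sets. Intensities of different probe sets are not set against each other, since probes bind with different strength, so no order of levels between the factors is given.

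Klf3 was the 1 member called, and it was higher in null cells. Klf2 was higher by less than 2-fold, and Klf4 was slightly lower. The other 6 members did not pass the test. By gene, 1 of 9 members was called higher, against 7.23% of all genes tested, and 0 lower, against 6.2%, so that 1 was called in all, against 13.4%. An adjusted p under 0.05, whatever the size, was reached by 3 of 9, against 48.8% of all genes. The arrays of the lines were apart for 3 of 9, with 2 members higher and 1 lower in every null array, against 57.2%, 28.3% and 28.9% of genes. By probe set, 2 of 30 were called higher and 0 lower, against 5.97% and 6.32% of all probe sets. At the adjusted p alone 5 were higher and 4 lower, against 18.9% and 21.2%, or 9 of 30 against 40.1% in both directions. The members as a group were therefore called no more often than the array as a whole, and their median difference was 0.08, against -0.01 for all genes.

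**Figure D1:**
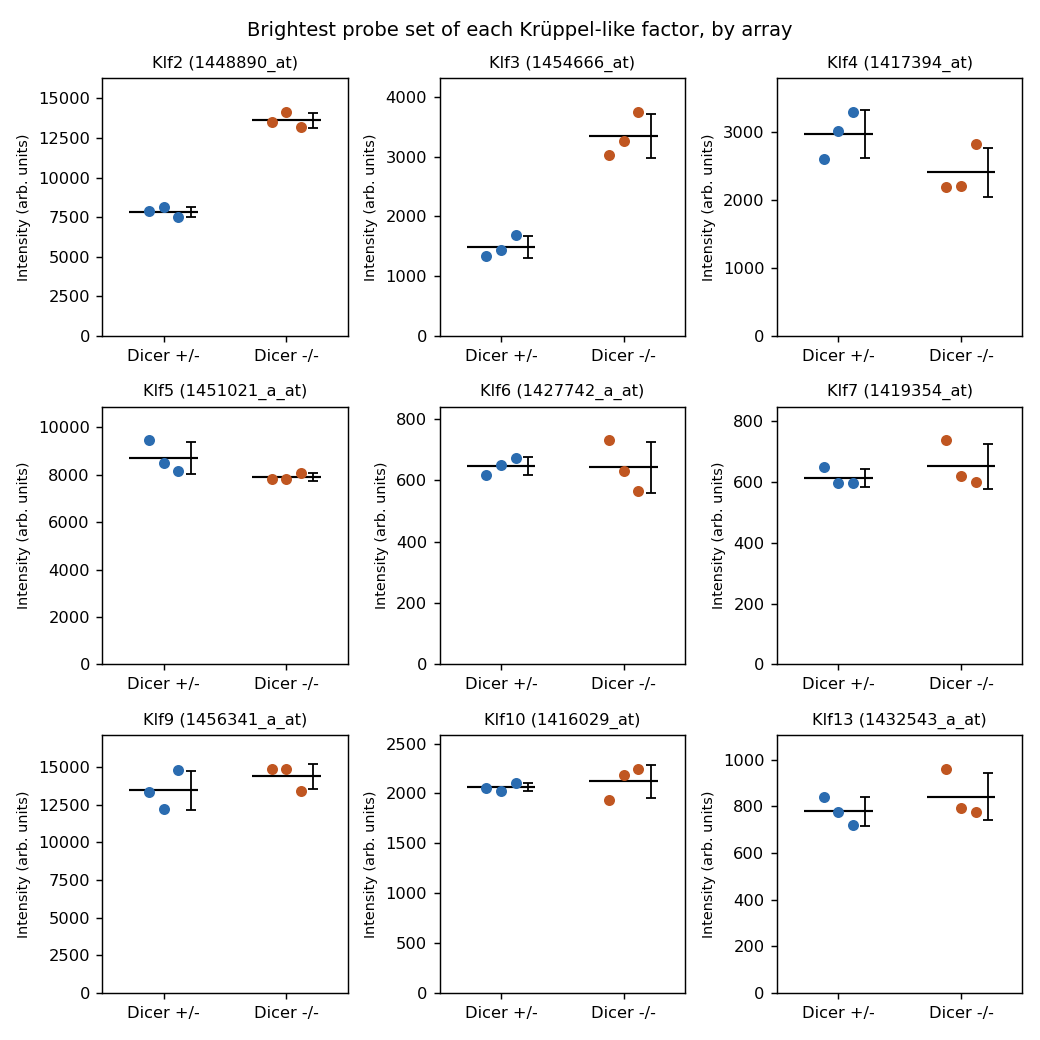
Intensity of the brightest probe set of each member (vertical axes, arbitrary units, starting at 0) on the 3 Dicer +/- and 3 Dicer -/- arrays (points), with the mean (line) and SD (bar). For Klf2 and Klf3 all null arrays lie above all heterozygous arrays, and for Klf5 all lie below by a small margin.

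The 250 bases upstream of the annotated start are shown for the pluripotency factors Klf2 and Klf4 and for the called member Klf3, since these are the members with differences between the lines. The sequences are from RefSeq, assembly GRCm38.p6, written 5′ to 3′ on the strand of the gene; 7 of the 9 members were in the promoter table, and Klf5 and Klf10 were not. The windows are chr8:72318812-72319061 on the plus strand for Klf2, chr5:64803271-64803520 on the plus strand for Klf3 and chr4:55532476-55532725 on the minus strand for Klf4. Capitals mark CACCC, the box that Krüppel-like factors bind, and GGGCGG, the GC box, on either strand (GGGTG and CCGCCC); matches may overlap.
Klf2: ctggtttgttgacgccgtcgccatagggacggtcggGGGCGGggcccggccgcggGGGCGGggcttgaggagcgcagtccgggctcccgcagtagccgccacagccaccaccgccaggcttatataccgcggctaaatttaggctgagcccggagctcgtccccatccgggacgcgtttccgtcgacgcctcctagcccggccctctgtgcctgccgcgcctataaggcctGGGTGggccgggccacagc
Klf3: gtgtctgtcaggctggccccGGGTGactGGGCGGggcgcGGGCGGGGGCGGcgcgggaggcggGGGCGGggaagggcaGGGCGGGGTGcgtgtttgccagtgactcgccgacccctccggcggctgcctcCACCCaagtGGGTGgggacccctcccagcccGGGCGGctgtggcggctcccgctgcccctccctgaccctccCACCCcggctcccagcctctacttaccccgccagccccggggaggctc
Klf4: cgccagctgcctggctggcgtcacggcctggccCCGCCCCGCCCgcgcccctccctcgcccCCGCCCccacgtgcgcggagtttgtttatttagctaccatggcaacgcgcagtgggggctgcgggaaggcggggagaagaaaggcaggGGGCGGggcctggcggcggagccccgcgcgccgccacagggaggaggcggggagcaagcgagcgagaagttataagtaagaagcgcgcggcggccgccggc

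The Klf3 window held 5 matches to CACCC and 6 to GGGCGG, the Klf2 window 1 and 2, and the Klf4 window 0 and 4. Among 32841 promoter windows of the same length, 52% held CACCC and 32.7% held GGGCGG, so that either match is common. The windows of Klf2, Klf3 and Klf4 were 71.2%, 78.4% and 74.0% G and C, against a median of 52.4% over all windows. TTCNNNGAA, the palindrome that STAT factors bind, was in 7.02% of all windows and had 0 matches in these 3; of the 7 member windows 1 held it, that of Klf9. These letters are a description of the windows and do not show that a factor binds there.

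Klf2, a factor of the pluripotency circuit that also acts in blood vessels, where the MEK5-ERK5 kinases and MEF2 factors induce it, was higher in null cells. Its only probe set, 1448890_at, read 7882, 8114 and 7494 in heterozygous arrays and 13511, 14136 and 13166 in null arrays. The lowest null array thus stood well above the highest heterozygous one. The means were 7830 ± 313 and 13604 ± 492 (SD, n = 3), a fold of 1.74. The log2 difference was 0.80 ± 0.06 (SE; 95% interval 0.67 to 0.93), with a limma adjusted p of 1.16e-06 over genes. The whole interval lies under the 2-fold threshold, so Klf2 was not called. A rise of this size or larger was measured for 12.6% of the genes tested.

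Klf3, the CtBP-dependent repressor also known as BKLF, was higher in null cells by the largest margin among the 9 brightest probe sets. Its brightest probe set, 1454666_at, read 1341, 1443 and 1694 in heterozygous arrays and 3019, 3267 and 3744 in null arrays, with no overlap. The means were 1493 ± 182 and 3344 ± 368 (SD, n = 3), a fold of 2.24. The log2 difference was 1.16 ± 0.10 (SE; 95% interval 0.94 to 1.39), with a limma adjusted p of 3.91e-06 over genes. A rise of this size or larger was measured for 6.79% of the genes tested. This probe set was the brightest over the arrays of both lines together. In heterozygous arrays alone another Klf3 probe set, 1431630_a_at, had the higher mean, 1617 ± 92.8 (SD, n = 3). Its log2 difference was 0.48, short of the call. The choice of the probe set that stands for Klf3 thus drew in part on the null arrays, where 1454666_at was higher.

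Klf3 is read by 7 probe sets, of which 6 were tested, and they did not give 1 common size of change. The second called probe set, 1429360_at, read 691, 662 and 768 in heterozygous arrays and 1395, 1326 and 1645 in null arrays, a log2 difference of 1.04 (limma adjusted p 3.00e-05 over probe sets). It fell just short of the threshold of size without heterozygous replicate 2 (0.99) and without null replicate 3 (0.95). The probe sets whose names end in _a_at, a suffix for probes shared by several transcripts of 1 gene, were also higher by less than 2-fold. They were 1421604_a_at, with 1148, 1021 and 1032 against 1703, 1699 and 1465 and a log2 difference of 0.60, and 1431630_a_at, with 1718, 1536 and 1598 against 2332, 2293 and 2120 and a difference of 0.48. Their limma adjusted p values were 0.000455 and 0.000736 over probe sets.

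The dim Klf3 probe sets did not pass the test. 1441200_at read 126, 71.7 and 133 in heterozygous arrays and 191, 153 and 159 in null arrays, a difference of 0.65 (limma adjusted p 0.0654), and 1442920_at differed by -0.34 (adjusted p 0.551). The null arrays lay above the heterozygous arrays for 5 of the 6 tested Klf3 probe sets, against 23.6% of all probe sets. These 6 read 1 gene on the same arrays, so they are not independent. Klf3 therefore owes its call to 2 of its probe sets: as a mean of log2 values over its 6 tested probe sets it was higher by 0.60 (adjusted p 0.00174), and over all 7 by 0.74 (adjusted p 0.0225), both short of the threshold of size.

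The unequal change within Klf3 can be read on each array as the log2 ratio of a pair of its probe sets. The ratio of 1454666_at to 1431630_a_at lay between -0.36 and 0.08 in heterozygous arrays and between 0.37 and 0.82 in null arrays. That of 1429360_at to the same partner lay between -1.31 and -1.06 in heterozygous and between -0.79 and -0.37 in null arrays. In both pairs the lines did not overlap, so the relative signal of these Klf3 probe sets differed between the lines. These pairs are among the 8, of 53 pairs of tested probe sets of the same member, whose 95% intervals did not overlap. They were picked by that difference and carry no test. The share of such pairs over all genes was not counted.

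**Figure D2:**
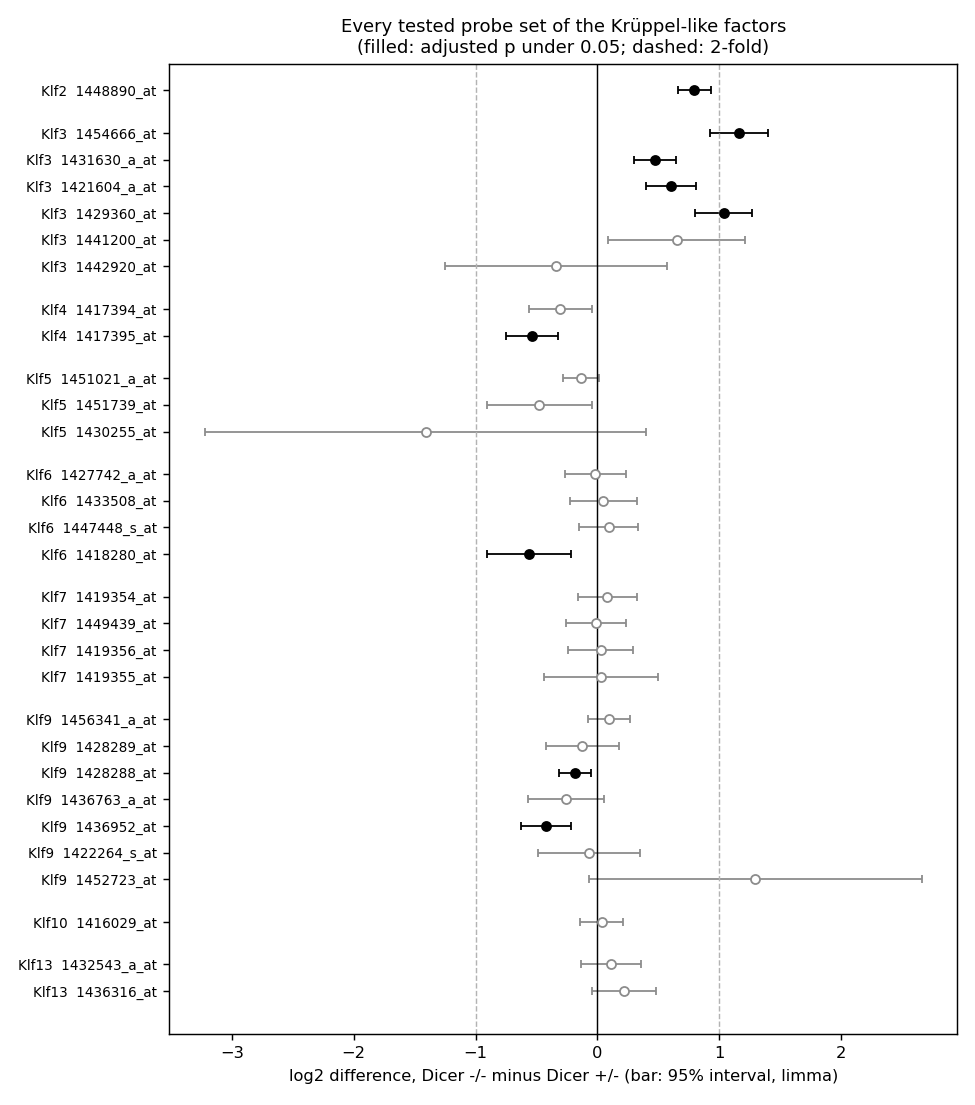
Log2 difference, null minus heterozygous (horizontal axis), of the 30 tested probe sets of the 9 members, with limma 95% intervals. Filled points have an adjusted p under 0.05, and dashed lines mark a 2-fold change: 4 Klf3 probe sets and Klf2 are filled on the right, and 1 probe set of Klf4, 1 of Klf6 and 2 of Klf9 on the left.

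Klf4, the LIF-induced member of the pluripotency circuit, was lower in null cells by a small amount. Probe set 1417395_at read 1826, 1940 and 1931 in heterozygous arrays and 1358, 1140 and 1454 in null arrays, with all null arrays below. The log2 difference was -0.53 ± 0.10 (SE), 1.45-fold lower (limma adjusted p 0.00139 over probe sets); with arrays centred on their medians it was -0.38 (adjusted p 0.0106). The brighter probe set 1417394_at read 2607, 3015 and 3297 in heterozygous and 2196, 2214 and 2830 in null arrays, which overlap. Its difference was -0.30 (95% interval -0.55 to -0.06), with an adjusted p of 0.0415 over genes and 0.0590 over probe sets. The gene-level adjusted p was 0.109 without heterozygous replicate 2, 0.147 without heterozygous replicate 3, 0.139 without null replicate 1 and 0.144 without null replicate 2. It was 0.148 with a variance prior that ignores intensity, and 0.285 with centred arrays, where the difference was -0.15.

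Klf2 and Klf4 thus differed between the lines in opposite directions. The direction was the same in all 20 alternative settings for each gene. Many of these settings left the estimate itself unchanged, among them the filters, the variance priors and the replicate block, and so say nothing about direction. The adjusted p stayed under 0.05 in all 20 for Klf2 and in 14 of the 20 for Klf4. Dropping the threshold of size, which is among the 20, cannot change it.

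Klf5, the third factor of the circuit, which is also needed in the trophectoderm of the early embryo, did not pass the test. Its brightest probe set, 1451021_a_at, read 9445, 8476 and 8149 in heterozygous arrays and 7806, 7828 and 8079 in null arrays. All null arrays lay below the heterozygous ones, by a margin smaller than the spread among the latter. The log2 difference was -0.13 (95% interval -0.28 to 0.01; limma adjusted p 0.121 over genes), an interval that lies within 2-fold for this probe set, and it turned to 0.02 with arrays centred on their medians. The dimmer probe sets 1451739_at (147, 155 and 193 against 126, 127 and 102) and 1430255_at (48.4, 44.3 and 56.4 against 33.3, 4.70 and 41.2) also had all null arrays below. Their differences were -0.48 and -1.41, with limma adjusted p values of 0.0756 and 0.2 over probe sets. As a mean over the 3 probe sets the difference was -0.67. Its limma adjusted p was 0.0597 when all probe sets were averaged in every gene. It was 0.0391 when only tested probe sets were averaged, a setting added after seeing the data.

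Klf6, a factor induced early after serum or injury, and Klf7, a factor of developing neurons, did not pass the test at the level of the gene. Klf6 read 617, 649 and 673 in heterozygous and 730, 631 and 566 in null arrays with its brightest probe set 1427742_a_at. The lines overlap, and the log2 difference was -0.02 (95% interval -0.26 to 0.22; limma adjusted p 0.916 over genes), with a sign that turned in 5 of 20 alternative settings. The probe sets 1433508_at and 1447448_s_at overlapped too, at 0.05 and 0.09. A dimmer one, 1418280_at, read 248, 280 and 263 against 208, 158 and 172, a difference of -0.56 with an adjusted p of 0.0145 over probe sets, or of 0.0622 with arrays centred on their medians. The fifth Klf6 probe set, 1459718_x_at, read at most 40.9 on any array and was not tested.

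The 4 Klf7 probe sets gave the most even picture of any member with several probe sets: all overlapped between the lines, and their differences lay between -0.01 and 0.08. The brightest, 1419354_at, read 647, 597 and 594 in heterozygous and 735, 619 and 598 in null arrays. Its log2 difference was 0.08 (95% interval -0.15 to 0.31; limma adjusted p 0.55 over genes). Klf7 lies on chromosome 1, where the median difference over 726 tested genes was 0.31; the medians of the chromosomes of the other 8 members lay between -0.11 and -0.01.

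Klf9, Klf10 and Klf13 recruit the Sin3 co-repressor. Klf9, which glucocorticoid and thyroid hormone induce, read 13380, 12219 and 14806 in heterozygous and 14864, 14884 and 13428 in null arrays with its brightest probe set 1456341_a_at. The log2 difference was 0.10 (95% interval -0.07 to 0.27; limma adjusted p 0.319 over genes), or 0.25 with an adjusted p of 0.0111 with arrays centred on their medians. Other Klf9 probe sets pointed the other way. 1436952_at read 995, 969 and 898 against 743, 733 and 666, a difference of -0.42 (adjusted p 0.00441 over probe sets, or 0.0699 with centred arrays), and 1428288_at read 7144, 6861 and 7517 against 6262, 6332 and 6353, a difference of -0.18 (adjusted p 0.0344, or 0.777 with centred arrays). The sign of the Klf9 difference thus varied with the probe set, though the interval of 1456341_a_at holds both signs. The log2 ratio of 1456341_a_at to 1436952_at lay between 3.66 and 4.04 in heterozygous and between 4.32 and 4.34 in null arrays. This pair is also among the 8 picked by intervals that did not overlap and carries no test.

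Of the remaining Klf9 probe sets, 1428289_at, 1436763_a_at and 1422264_s_at differed by -0.12, -0.26 and -0.07 with overlapping lines. The dim probe set 1452723_at read 37.9, 10.5 and 20.1 against 41.7, 58.4 and 48.4, a difference of 1.30 with an adjusted p of 0.122. It reached 32 on all null arrays and on 1 heterozygous array, so it passed the filter mainly through the line in which it was brighter.

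Klf10, a gene that transforming growth factor beta switches on early, is read by 1 probe set, 1416029_at. It read 2053, 2028 and 2109 in heterozygous and 1932, 2184 and 2245 in null arrays, which overlap. The log2 difference was 0.04 (95% interval -0.13 to 0.20; limma adjusted p 0.722 over genes). Klf13, which takes part in lymphocyte and heart gene expression, read 840, 775 and 719 against 960, 792 and 774 with 1432543_a_at, a difference of 0.11 (95% interval -0.12 to 0.34; adjusted p 0.425). Its other tested probe set, 1436316_at, differed by 0.22 (adjusted p 0.171 over probe sets), and the third, 1456030_at, was below 32 on every array.

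The spread between arrays of a line set what could be seen. The SD of log2 values within a line was pooled over both lines for each probe set. It was between 0.05 and 0.24 for the 12 member probe sets with a mean log2 value of at least 10, an intensity of 1024. For the 3 with a mean log2 value under 7, an intensity of 128, it was between 0.39 and 1.23. The lines were apart for 14 of the 30 tested probe sets, against 51.3% of all probe sets, with null above for 7 (23.6% of all) and below for 7 (27.7% of all).

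Genes with the most similar profile over the 6 arrays were sought for Klf2, Klf3, Klf4 and Klf5 among the 12926 other genes, as the root mean square difference of log2 values after centring each gene on its own mean. The closest to Klf2 were Dnajc6, Aarsd1 and Smagp, at 0.025, 0.033 and 0.037, and to Klf3 Mme, Tmem64 and Adam10, at 0.046, 0.053 and 0.059. The closest to Klf4 were Cyb5a, Lrr1 and Usp33, at 0.033, 0.039 and 0.046, and to Klf5 Cep83, Ddb1 and Nek6, at 0.014, 0.017 and 0.026. With 2 lines such likeness mostly repeats the difference between the lines.

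Of 8 other Krüppel-like factor genes on a list of the family, 6 were tested, with 0 called higher and 1 lower, against 7.23% and 6.2% of all genes. This was Klf16, a Sin3-recruiting factor, which fell from 430, 451 and 487 to 178, 246 and 190, which is -1.17 on the log2 scale (limma adjusted p 5.24e-05). Klf11, the closest relative of Klf10, was higher at 305, 335 and 315 against 432, 429 and 393, a difference of 0.39 (adjusted p 0.0120), and Klf15 was lower by 0.50 on the log2 scale (adjusted p 0.0262). Of the related SP factors, which bind GC boxes, 7 of 9 were tested, with 0 called higher and 1 lower, against the same shares of all genes. The call was Sp5, a target of Wnt signalling, which fell by 1.36 on the log2 scale. Sp3 was lower by 0.48 on that scale (adjusted p 0.0255). Klf1, Klf12 and Klf17 were dim and did not pass the test.

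Genes of the pathways that induce Klf4 and Klf2 were mostly higher in null cells. Of 11 genes of the LIF-Stat3 and MEK5-ERK5-MEF2 pathways, all tested, 4 were called higher and 0 lower, and at the adjusted p alone 7 were higher and 0 lower, against 24.5% and 24.3% of all genes. The median difference was 0.50, against -0.01 for all genes. Shifts of whole chromosomes were not taken out of these counts. The median was 0.31 over 726 tested genes of chromosome 1 and 0.29 over 1097 of chromosome 11. How many of the listed genes lie there was not counted. Il6st, the gp130 chain of the LIF receptor complex, rose from 1292, 1268 and 1090 to 3236, 3260 and 3106, a fold of 2.64 (limma adjusted p 1.78e-07). Jak1, the kinase bound to that receptor, rose from 989, 1186 and 1028 to 2333, 2070 and 2193, a fold of 2.06; its log2 difference was 1.04, and it fell just short of the call without heterozygous replicate 1 (0.99) and with array weights (0.999).

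The MEF2 factors called were Mef2d, which rose from 197, 222 and 294 to 639, 595 and 719, a fold of 2.77, and Mef2a, from 353, 327 and 293 to 824, 763 and 694, a fold of 2.34. As means over all their probe sets they were at 0.68 and 0.38, short of the threshold of size, and Mef2a then had an adjusted p of 0.324. Stat3 itself read 1621 ± 60.1 and 1738 ± 54.2 (SD, n = 3) and did not pass the test, nor did Lif, Map2k5 (MEK5) or Mef2c. In the same cells Klf2 was higher and Klf4 was lower. Whether these differences follow from those of the pathway genes was not tested.

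Among 18 pluripotency genes that work with Klf2, Klf4 and Klf5, all tested, 1 was called higher and 0 lower, against 7.23% and 6.2% of all genes. With no threshold of size 4 were higher and 5 lower, against 24.5% and 24.3% of all genes, so these counts were near the background. The call was Prdm14, a repressor that sustains naive pluripotency, which rose 2.96-fold; it lies on chromosome 1. Tcl1, a co-activator of Akt, was lower by 0.78 on the log2 scale and Tbx3, a T-box factor of the LIF circuit, by 0.58, both below the threshold of size. The split at the adjusted p alone turned to 7 higher and 2 lower with arrays centred on their medians. Centring also moved the median of all genes, from -0.01 to 0.14. The matching shares of all genes at the adjusted p alone were not counted.

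Co-factors and regulators of protein stability were counted next. Of 12 co-repressors and co-activators 11 were tested, with 1 called higher and 0 lower, against 7.23% and 6.2% of all genes. The call was Kat2b, the acetyltransferase PCAF, which rose 2.61-fold; it was at 0.99 on the log2 scale without probe sets that share sequence. Ep300, the acetyltransferase p300, was lower by 0.52 on that scale (limma adjusted p 0.0017). The CtBP partners of Klf3, Ctbp1 and Ctbp2, were lower by 0.23 and 0.28 on the log2 scale (limma adjusted p 0.0173 and 0.0283), and Sin3a was lower by 0.21 (0.0387) while Sin3b was higher by 0.47 (0.000163). At the adjusted p alone 3 co-factors were higher and 4 lower, against 24.5% and 24.3% of all genes. With arrays centred on their medians the co-factor counts were 4 and 1, with the shares of all genes not counted there. Of 7 ubiquitin ligases known or reported to act on these factors 0 were called. At the adjusted p alone 4 ligases passed as higher and 2 as lower, against the same 24.5% and 24.3% of all genes. Smurf2 was higher by 0.57 and Siah1a lower by 0.86 on the log2 scale.

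Immediate-early genes, which growth factors switch on within minutes as they do Klf2, Klf4, Klf6 and Klf10 in other cells, were more often lower than higher. Of 17 listed genes 14 were tested, with 1 called higher and 6 lower, against 7.23% and 6.2% of all genes, and a median of -0.71. At the adjusted p alone 3 were higher, Btg2, Jun and Dusp1, and 8 lower, against 24.5% and 24.3% of all genes. With arrays centred on their medians 1 was called higher and 5 lower, against 1268 and 574 of 12931 genes. Egr1, a zinc finger factor, fell from 3414, 3176 and 2925 to 919, 941 and 1002, a fold of 3.32 (limma adjusted p 4.11e-08). Junb, a subunit of AP-1, fell 3.53-fold and Ier3 2.65-fold, and Fosl1, also of AP-1, fell 3.86-fold with values under 32 raised to 32. The other 2 called lower were Myc and Zfp36, and the 1 called higher was Btg2, all named after their values were seen. Btg2 was at 0.53 as a mean over its probe sets and was then not called. It was also just short of the call with quantile normalization (0.99), with 16 added to each value (0.997) and without heterozygous replicate 2 or null replicate 1 (both 0.97). Klf6 and Klf10 were not called with these genes.

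**Figure D3:**
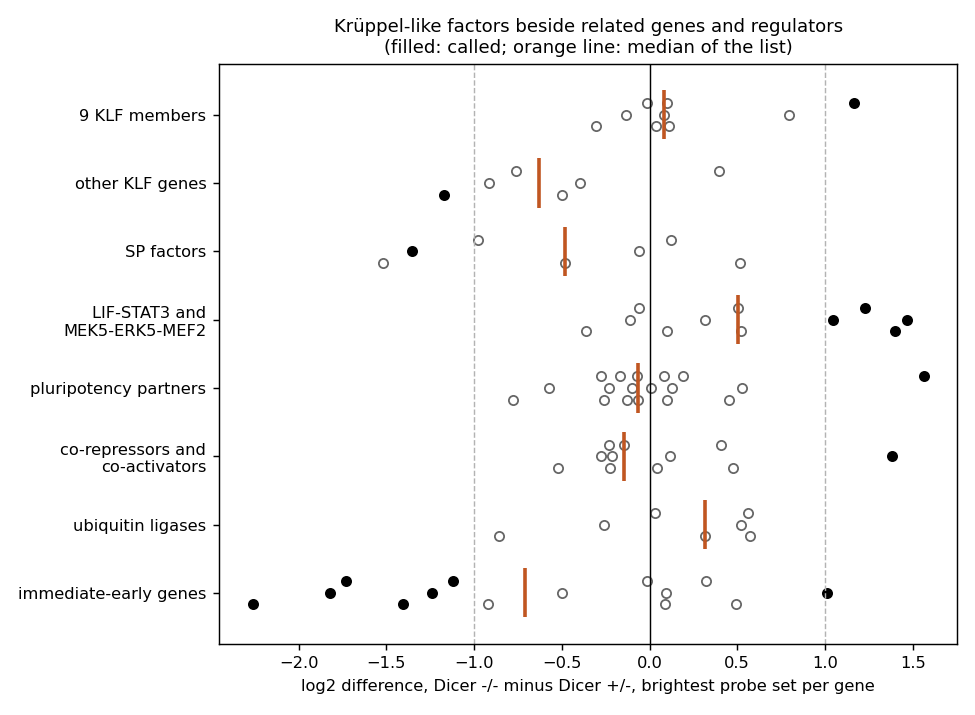
Log2 difference, null minus heterozygous (horizontal axis), of each tested gene of 8 lists, as points spread vertically for legibility; filled points were called and orange lines mark list medians. The 9 members centre near 0, the inducing pathways lie to the right with a median of 0.50, and the immediate-early genes lie to the left with a median of -0.71.

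The libraries carried the markers of ES cells. All 8 ES markers listed (among them Pou5f1, Sox2 and Nanog) reached 32 on every array, and their summed intensity was between 99796 and 104700 in heterozygous and between 94475 and 100398 in null arrays. Some markers of other cell types differed between the lines. Of all genes tested 7.23% were called higher and 6.2% lower. Of 8 trophectoderm markers, a tissue in which Klf5 acts, 7 were tested, with 0 called higher and 2 lower, Krt18 and Cdx2. The sum of the 8 was between 11252 and 12502 in heterozygous and between 6050 and 6605 in null arrays. Most of it came from Krt18, with means of 5244 and 1896, and Krt8, with means of 4700 and 2705. Gata3 and Tfap2c each differed by 0.04 on the log2 scale. Of 8 primitive endoderm markers 0 were called higher and 3 lower, Dab2, Lama1 and Gata6, with sums of 1819 to 2521 and 673 to 720. Of 12 fibroblast markers 9 were tested, with 1 called higher, Dcn, and 1 lower, Col1a1, and sums of 741 to 765 and 927 to 1048 over the 11 annotated. Though the sum was higher in null arrays, the median difference of the 9 tested was -0.52. At the adjusted p alone Dcn and Col5a2 were higher and Col1a1 and Thy1 lower. Cdx2 and Col1a1 passed the filter only through the heterozygous arrays, where they were brighter, and were not tested once any of these was left out, so their calls carry no weight. As means over probe sets Dcn and Gata6 had adjusted p values of 0.116 and 0.0706 and were not called. No marker was listed at 0, and 1 fibroblast and 1 trophectoderm marker were below 32 on every array. Their part in the differences of the Krüppel-like factors was not tested, and in bulk RNA fewer cells of a type and less RNA per cell cannot be told apart. Dicer1 itself did not pass the test in either of its probe sets. 1427941_at read 1098 ± 39.2 in heterozygous and 1197 ± 62.2 in null arrays (SD, n = 3, limma adjusted p 0.264 over probe sets). 1460571_at read 370 ± 32.5 and 368 ± 34.0 (adjusted p 0.962). Whether either lies in the deleted part is not known, so these values do not check the genotype.

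**Figure D4:**
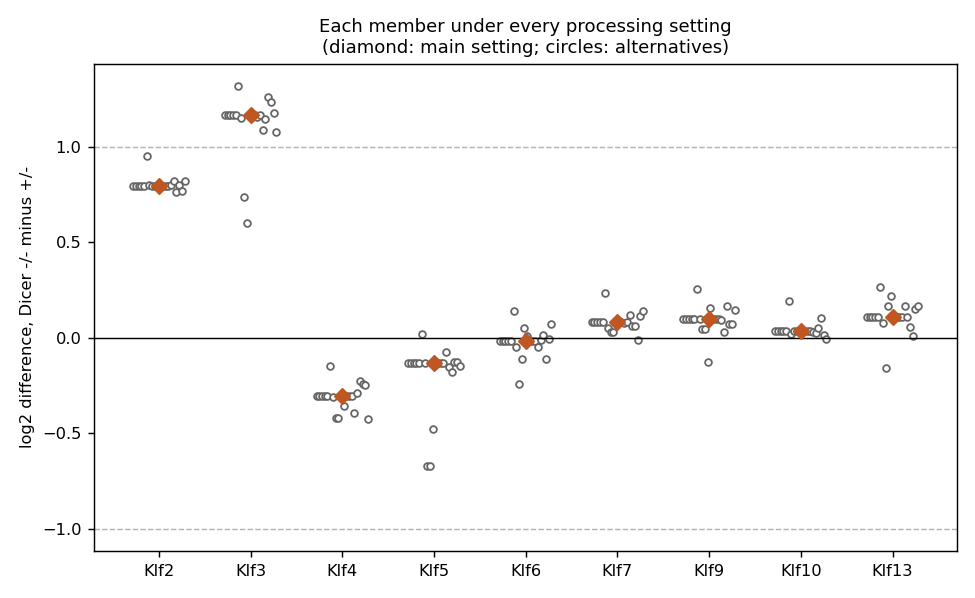
Log2 difference, null minus heterozygous (vertical axis), of each member in the main setting (diamond) and in 20 alternative settings (circles), with dashed lines at a 2-fold change. Klf2 lies between 0.77 and 0.95 and Klf3 between 0.60 and 1.32, both above 0 throughout, Klf4 lies below 0 throughout, and the other 6 members have values on both sides of 0.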

How the data were processed

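Expression was measured in 6 arrays, 3 per line, grouped by sample title. The authors deposited 1 linear intensity for each probe set, with the same mean on every array after trimming 2% at each end, as tested on the values. The submitters' processing notes name GCRMA and no other tool, without its step. The median intensity was between 44.9 and 52.7. Precision is limited by having 3 arrays a line.

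Without the 64 controls, 34945 probe sets carried 1 gene symbol. Values were turned into log2, filtered (log2 of 5 in 3 arrays) and fitted with group as the only term by lmFit and eBayes with an intensity trend, two-sided (limma 3.58.1, R 4.3.3). On simulated data with the same 12927 genes, 72% of genes changed by a log2 of 0.75 had an adjusted p under 0.05. Of those changed by 1.5, 84% were called, and 8 unchanged genes were called. The simulated noise was independent between arrays, and its size was set by intensity alone. Each size of change was given to 50 genes, while 6305 genes had an adjusted p under 0.05 in the data. These rates may therefore not hold for the data.

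All 9 members are named, and in each other list up to 4 called genes by size, or up to 2 with the largest difference at the adjusted p alone where fewer than 2 were called, and the 3 closest profiles for Klf2, Klf4, Klf5 and the called member; other genes were named after their values were seen. Members and lists were chosen with earlier results of these data known. Gene symbols and chromosomes are those of the platform annotation and of RefSeq on GRCm38.p6. The alternatives were other filters, variance priors, scalings, log scales, ways to combine probe sets, array weights, a replicate block, no threshold of size and leaving out each array.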

Additional observations from a re-analysis of the deposited data

How the results depend on the processing

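Klf3 kept its direction in all 20 alternatives and its call in 18. Many of these, such as the filters, the variance priors and the replicate block, left its estimate unchanged. The call was lost only as a mean over probe sets, where 0 members were called. This held over all probe sets and, in a setting added after seeing the data, over those that passed the filter. With no threshold of size 3 member genes, 9 member probe sets and 6305 genes were called. Leaving out 1 array gave 1 member gene in every case, 1 to 2 member probe sets and 1569 to 1693 genes. With arrays centred on their medians, which moved the median of all genes from -0.01 to 0.14, the split of calls moved from 934 higher and 802 lower to 1268 and 574; Klf5 turned to 0.0208 and Klf6 to 0.14. Without probe sets that share sequence another probe set stood for the gene: Klf6 was at 0.0502 with 1433508_at and Klf9 at -0.12 with 1428289_at. As a mean over all probe sets, which takes in 1456030_at, below 32 on every array, Klf13 was at -0.16. Klf6 was at 0.0102 with array weights. Without 1 array Klf6 lay between -0.113 and 0.0708, turning sign without heterozygous replicate 3 (0.0132) and without null replicate 3 (0.0708). Klf7 then lay between -0.0088 (without null replicate 1) and 0.14, and Klf10 between -0.0062 (without null replicate 3) and 0.102. None of these reversals had an adjusted p under 0.05, and the cause of those with array weights or without 1 array was not tested. The replicate number as a block left 1 member gene, 2 member probe sets and 1746 genes called. Same-numbered arrays of the lines correlated at 0.033, 0.028 and 0.076 in their deviations across genes, and each array correlated best with its own number, a hint from the data and not the design; they were not treated as pairs. Low signal limited the 3 member probe sets with a mean log2 value under 7. Their SD within a line, pooled over both lines, was between 0.39 and 1.23 on the log2 scale.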
